A study of Mus musculus with 4 samples.

Results

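The glucocorticoid receptor gene Nr3c1 and 9 classical targets of the receptor were examined in the posterior eye: Fkbp5, Tsc22d3, Sgk1, Zbtb16, Dusp1, Cdkn1a, Errfi1, Klf9 and Klf15. These 10 genes were taken by name from a table of 22863 genes, each name matched 1 row, and all 10 had values of at least 10 in every sample. The 4 samples came from C3H/f+/+ mice, a C3H line that makes melatonin and is free of the Pde6b mutation of the original strain. In the subjective day group 2 samples were taken 6 hours after scheduled lights-on from mice kept in darkness for 18 hours, although another passage of the study gives 30 hours. In the objective day group 2 samples were taken at the same clock hour from mice that had seen morning light and then spent 1 hour in darkness. The labels name no drug or hormone for either group, and plasma corticosterone was not analysed here. Each sample pooled 4 eyes, taken from a female and a male, without lens and anterior segment, so retina, retinal pigment epithelium (RPE), choroid and posterior sclera were measured together. In such bulk tissue, fewer cells of a type and less RNA per cell cannot be told apart.

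The values are gene counts with decimals that sum to between 33278417 and 35236783 per sample, the form of counts adjusted to the same library size, and are called adjusted counts here. The adjustment is not described in the sources used here, so the sequencing depth behind each value is unknown, and the precision is set by the 2 samples per group. Groups were compared on log2(adjusted count + 1) with limma, over the 17784 genes with an adjusted count of at least 10 in at least 2 samples. Fold changes are objective day over subjective day. All 12 photoreceptor markers listed passed the filter. The RPE marker Best1 had at most 9.7 adjusted counts in any sample, while 8 of the 9 RPE markers passed the filter. The 11 markers of ocular surface epithelium summed to 13960 and 14160 adjusted counts in subjective day and to 4371 and 7099 in objective day, and 7 of the 10 tested were called lower, against 7.45% of all genes. Krt12, the corneal keratin, had 1.78 to 12.5 adjusted counts and was too low to test. Red cell markers went the other way, with 3 of 5 called higher, against 1.06% of all genes, and sums of 3060 and 3172 in subjective day against 4307 and 4583 in objective day. With the GC trend removed the 7 ocular surface markers and 1 of the 3 red cell markers were still called, against 1.2% of all genes. The part of these tissues in the results for the 10 genes was not tested.

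Corticosterone, the main glucocorticoid of mice, is secreted by the adrenal gland in a daily rhythm and in response to stress. It binds the glucocorticoid receptor in the cytoplasm, where the receptor is held by Hsp90 and co-chaperones such as those encoded by Fkbp5 and Fkbp4. The bound receptor enters the nucleus and attaches to response elements in DNA, from which it switches on genes that limit inflammation, restrain growth signals and adjust metabolism. In the retina the receptor is known chiefly from Müller glia. Several of its targets also respond to signals other than the hormone, among them growth factors, calcium and cyclic AMP.

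Promoter sequences are shown first, because they hold the recognition sequences through which these genes can be reached. RefSeq windows of 300 bases, with 250 before and 50 from the annotated start of transcription onwards, were given on GRCm38.p6 for 8 of the 10 genes, in 17 windows. Zbtb16 and Nr3c1 are not shown. The stretches below read from 5′ to 3′ along the strand of the gene, and capitals mark the match to the motif named.
Sgk1, window 5, glucocorticoid response element, chr10:21993661-21993755, plus strand: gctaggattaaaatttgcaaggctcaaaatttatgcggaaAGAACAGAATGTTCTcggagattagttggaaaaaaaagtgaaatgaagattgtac
Tsc22d3, window 2, a single arm of that element, chrX:140600653-140600747, minus strand: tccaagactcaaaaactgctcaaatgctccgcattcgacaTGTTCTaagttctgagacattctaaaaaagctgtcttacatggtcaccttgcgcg
Dusp1, cyclic AMP response element, chr17:26508561-26508655, minus strand: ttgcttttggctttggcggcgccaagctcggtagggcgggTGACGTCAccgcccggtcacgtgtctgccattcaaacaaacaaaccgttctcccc
Errfi1, window 2, cyclic AMP response element, chr4:150854979-150855073, plus strand: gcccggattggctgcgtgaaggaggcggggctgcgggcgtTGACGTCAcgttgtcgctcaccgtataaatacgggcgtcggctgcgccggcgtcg
Fkbp5, E-box, chr17:28486264-28486358, minus strand: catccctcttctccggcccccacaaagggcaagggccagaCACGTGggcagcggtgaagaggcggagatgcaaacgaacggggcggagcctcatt
Klf15, whole window, E-boxes, chr6:90462326-90462625, plus strand: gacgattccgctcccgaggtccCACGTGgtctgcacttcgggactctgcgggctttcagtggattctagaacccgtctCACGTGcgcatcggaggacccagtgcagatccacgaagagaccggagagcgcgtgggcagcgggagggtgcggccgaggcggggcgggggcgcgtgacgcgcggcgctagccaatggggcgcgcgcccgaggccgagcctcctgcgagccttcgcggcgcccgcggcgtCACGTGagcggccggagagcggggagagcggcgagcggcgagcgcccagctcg

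The Sgk1 stretch holds a complete glucocorticoid response element, AGAACA and TGTTCT separated by 3 bases, without a mismatch. It starts 189 bases before the start of window 5 of 6 and 965 bases before that of window 6, in the order of the annotated Sgk1 starts. With up to 2 mismatches in the 12 fixed letters the element was found in windows 3 and 5 of Sgk1 and in no other of the 17 windows, against 1.83% of the 32544 different promoter windows of all genes. Its 6-base arm AGAACA, searched on both strands like every motif here, was in 4 of the 17 windows, of Sgk1 and Tsc22d3, against 18.9% of all windows. The exact element in window 5 contains AGAACA on both strands, so these matches overlap.

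The cyclic AMP response element TGACGTCA was in 2 of the 17 windows, of Dusp1 and Errfi1, against 1.8% of all windows. Its core TGACG, which the whole element contains on both strands, was in 6 of the 17 windows, of 6 genes, against 20.9% of all windows. The E-box CACGTG, the sequence read by the circadian clock proteins Clock and Bmal1, was present in 4 of the 17 windows, of Dusp1, Fkbp5, Klf15 (with 3 copies) and Sgk1, against 7.17% of all windows. GGGTGG, a sequence that Krüppel-like factors can bind, was in 4 of the 17 windows, of Cdkn1a, Dusp1, Sgk1 and Tsc22d3, against 31.6% of all windows. The CArG box, through which serum response factor acts, was in 0 of the 17 windows, against 1.64% of all windows. These matches describe the letters of the windows only, and elements bound by the receptor often lie farther from a start.

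**Figure D1:**
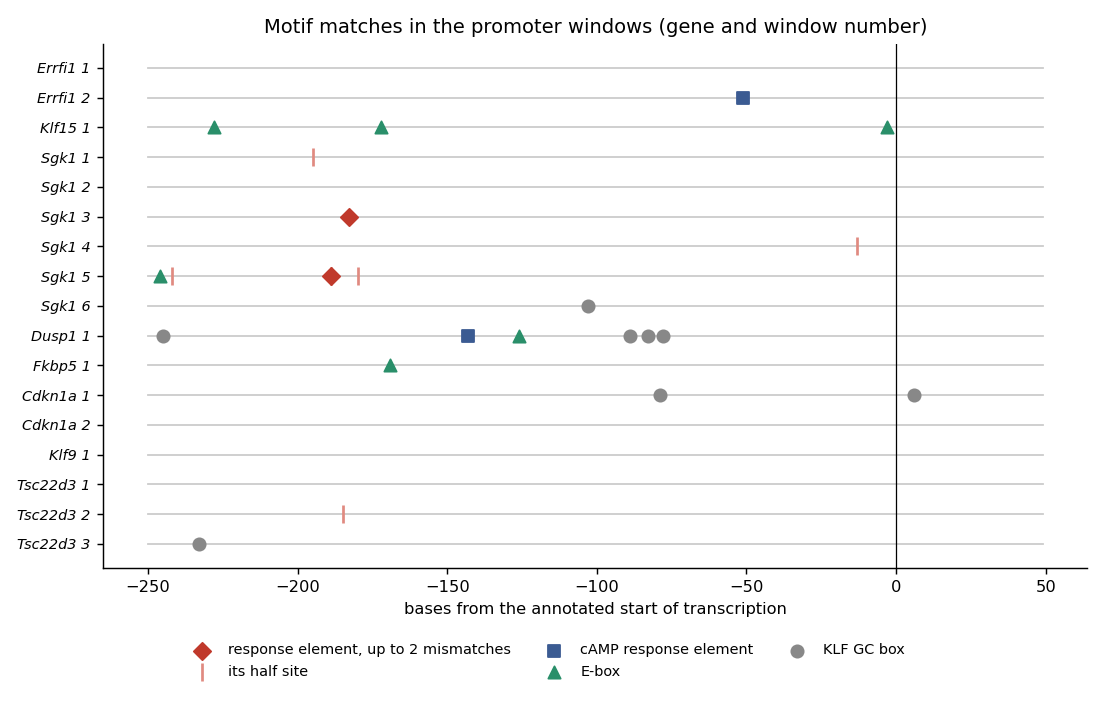
Positions of motif matches, in bases from the annotated start of transcription, in the 17 RefSeq windows of 8 of the genes (gene name and window number on the vertical axis). Each grey line is 1 window, and the symbols name the motif. Window 5 of Sgk1 holds the exact response element 189 bases before its start, and the cyclic AMP response element appears in Dusp1 and Errfi1.

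The study compared the 2 conditions to ask how light before dark adaptation changes gene expression in the eye. The same 2 conditions were compared here with limma, and the authors' own calls were not used. With limma's test 0 of 10 had an adjusted p under 0.05, where 8.51% of all genes tested did, 7.45% lower and 1.06% higher in objective day. Upper-quartile scaling gave 1242 lower and 443 higher calls in place of 1325 and 189, and 0 of the 10. The share of genes called was 4.14% without objective day sample 1, 3.73% without objective day sample 2 and 14.4% without subjective day sample 1, again with 0 of the 10. Without adjustment 4 of the 10 had a p under 0.05, namely Nr3c1, Cdkn1a, Klf15 and Fkbp5, against 25.4% of all genes. With the GC trend removed 1 of the 10 had a p under 0.05 without adjustment, as did 2365 of 17536 genes. The 2 conditions did not overlap for 8 of the 10 genes, 4 higher and 4 lower, against 56.1% of all genes. The differences were small. The median absolute log2 fold change was 0.11 over the 10 genes and 0.16 over all genes tested. The 95% interval stayed within a 2-fold change either way for all 10 genes, as it did for 84.1% of all genes. It stayed within a 1.5-fold change for 9 of the 10, all but Cdkn1a, a limit that was not counted over all genes. The directions were mixed, with 6 of the 9 targets above and 3 below 0, and a median log2 fold change of 0.069 over the targets against 0.015 over all genes. With the GC trend of each sample removed, 4 of the 9 targets lay above and 5 below 0, and the median was -0.0006 against 0.021 over all genes. For any gene alone, the smallest p that an exact two-sided permutation over 2 and 2 samples can give is 0.333.

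**Figure D2:**
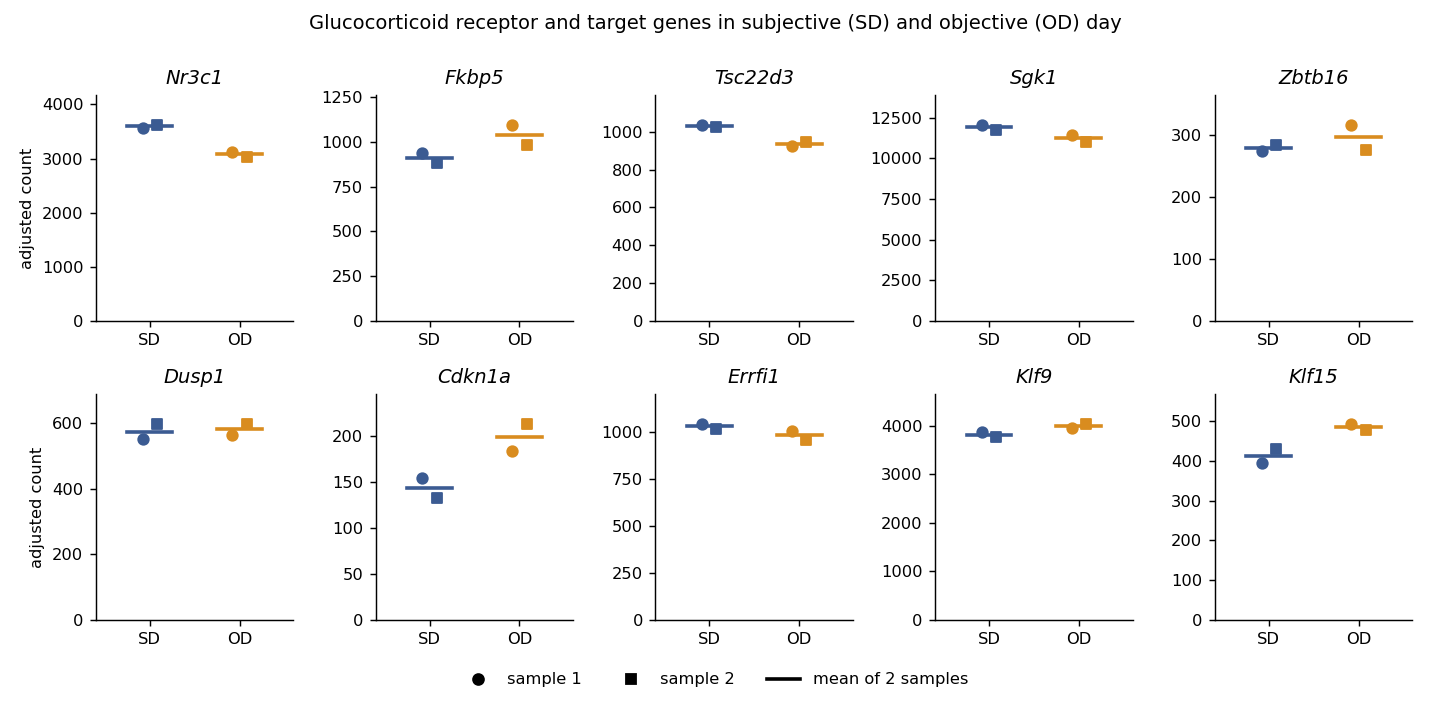
Adjusted counts of the 10 genes in the 4 samples, each gene on its own axis from 0, with subjective day (SD) in blue and objective day (OD) in orange. Circles are the samples numbered 1, squares those numbered 2, and bars the means. The conditions overlap for Zbtb16 and Dusp1 and are apart for the other 8 genes, with the widest difference, 38.4%, in Cdkn1a.

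Nr3c1 (ENSMUSG00000024431), the receptor itself, was the gene nearest to the threshold. Its adjusted counts were 3569 and 3630 in the subjective day samples and 3119 and 3038 in the objective day samples. The conditions did not overlap, and both objective day samples lay below. The mean of 3599 ± 43.1 (SD, n = 2) in subjective day compared with 3078 ± 57.4 (SD, n = 2) under objective day conditions, a change of -14.5%. The log2 fold change was -0.23 (standard error 0.058, 95% interval -0.36 to -0.091, adjusted p = 0.0565, limma). Across 17536 genes, all measured in the same 4 libraries, the Spearman correlation of log2 fold change and transcript GC content was 0.583. The Nr3c1 transcript has a GC content of 42.2%, lower than that of the 9 targets and lower than all but 12.8% of genes. After the GC trend of each sample was removed, the Nr3c1 log2 fold change turned to 0.052 (95% interval -0.088 to 0.19, adjusted p = 0.776, limma). In the same samples the Müller glia genes Slc1a3 and Aqp4 were called lower, with log2 fold changes of -0.34 and -0.44, while the other 7 of the 9 Müller glia markers were not called. The 2 are 22.2% of that list, against 7.45% of all genes called lower. Without the GC trend they were at -0.23 and -0.10, and neither was called. All 9 together summed to 181661 and 164031 adjusted counts in subjective day and to 176978 and 165026 in objective day. Their part in the receptor's value was not tested. The gene lies on the minus strand of chromosome 18 of GRCm38, from 39410545 to 39519421, by GENCODE release M21, and shares no exonic bases with another gene.

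Fkbp5 (ENSMUSG00000024222, chromosome 17, 28399094 to 28517527, minus strand) encodes a co-chaperone that lowers the receptor's affinity for hormone, and its induction by glucocorticoids closes a feedback loop. Its adjusted counts were 936 and 882 in the subjective day samples and 1098 and 983 in the objective day samples. Both objective day samples were above both subjective day samples, with the second objective day sample near to the first subjective day sample. The log2 fold change was 0.19 (standard error 0.082, 95% interval 0.0008 to 0.39, adjusted p = 0.195, limma). Without the GC trend it was 0.13, with an interval from -0.06 to 0.33, and without objective day sample 1 it was 0.11.

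A pair of the targets restrain inflammation. Tsc22d3 (ENSMUSG00000031431, X chromosome, 140539528 to 140600659, minus strand) encodes the glucocorticoid-induced leucine zipper, which blocks inflammatory transcription factors. Its adjusted counts were 1040 and 1024 in the subjective day samples and 925 and 948 in the objective day samples. The samples of a condition differed by 0.022 and 0.035 on the log2 scale, and the objective day samples were the lower ones. The log2 fold change was -0.14 (standard error 0.068, 95% interval -0.30 to 0.018, adjusted p = 0.246, limma). Dusp1 (ENSMUSG00000024190, chromosome 17, 26505590 to 26562128, minus strand) encodes a phosphatase that switches off MAP kinases and is also an immediate early gene. Dusp1 had adjusted counts of 550 and 596 in the subjective day samples and 564 and 598 in the objective day samples. The conditions overlapped almost completely, and the log2 fold change was 0.020 (standard error 0.087, 95% interval -0.18 to 0.22, adjusted p = 0.91, limma). It ranged from -0.037 to 0.078 when 1 sample was left out, and was below 0 without objective day sample 2 or subjective day sample 1. Tsc22d3 and Fkbp5, which the receptor is known to induce in many cell types, thus lay on opposite sides of 0. The annotated model of Dusp1 reaches upstream of the promoter window shown above. Dusp1 shares 11 exonic bases with Ergic1 on the opposite strand, 0.33% of its exons.

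The next 2 targets act on kinase signals at the cell surface and membrane. Sgk1 (ENSMUSG00000019970, chromosome 10, 21882184 to 21999903, plus strand) encodes a kinase that controls ion channels and transporters. Its adjusted counts were 12086 and 11724 in the subjective day samples and 11456 and 11027 in the objective day samples. The objective day samples were lower without overlap, and samples of the same condition differed by 0.044 and 0.055 on the log2 scale. The mean was 11900 ± 256 (SD, n = 2) and 11240 ± 303 (SD, n = 2), and the log2 fold change was -0.083 (standard error 0.064, 95% interval -0.23 to 0.066, adjusted p = 0.461, limma). Errfi1 (ENSMUSG00000028967, chromosome 4, 150853919 to 150868892, plus strand) encodes an inhibitor of the epidermal growth factor receptor. It had 1044 and 1015 adjusted counts in the subjective day samples and 1007 and 957 in the objective day samples. The second subjective day sample and the first objective day sample nearly met, and the log2 fold change was -0.068 (standard error 0.07, 95% interval -0.23 to 0.096, adjusted p = 0.59, limma). For Errfi1 it was -0.10 without objective day sample 1, -0.032 without objective day sample 2 and -0.0195 without the GC trend.

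Klf9, Klf15 and Zbtb16 encode zinc finger transcription factors. Klf9 (ENSMUSG00000033863, chromosome 19, 23141226 to 23168134, plus strand), which also has a daily rhythm in several tissues, had 3858 and 3761 adjusted counts in the subjective day samples and 3952 and 4040 in the objective day samples. The resulting log2 fold change was 0.069 (standard error 0.058, 95% interval -0.066 to 0.20, adjusted p = 0.501, limma), and 0.12 without the GC trend. Klf15 (ENSMUSG00000030087, chromosome 6, 90462576 to 90475238, plus strand), a regulator of amino acid and glucose metabolism, had 394 and 430 adjusted counts in the subjective day samples and 494 and 478 in the objective day samples. Both objective day samples were higher for either gene. The log2 fold change of Klf15 was 0.24 (standard error 0.092, 95% interval 0.023 to 0.46, adjusted p = 0.158, limma), and 0.14 without the GC trend (interval -0.08 to 0.37). Zbtb16 (ENSMUSG00000066687, chromosome 9, 48654297 to 48836222, minus strand) encodes a repressor that glucocorticoids induce in many cell types. Zbtb16 had adjusted counts of 275 and 285 in the subjective day samples and 318 and 277 in the objective day samples. The second objective day sample lay between the subjective day samples, and the log2 fold change was 0.086 (standard error 0.114, 95% interval -0.18 to 0.35, adjusted p = 0.689, limma). For Zbtb16 it was -0.013 without objective day sample 1 and 0.18 without objective day sample 2.

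Cdkn1a (ENSMUSG00000023067, chromosome 17, 29090976 to 29100727, plus strand) encodes an inhibitor of cyclin-dependent kinases that stops the cell cycle. It showed the widest difference of the 10 genes and also the lowest level. Cdkn1a had adjusted counts of 154 and 132 in the subjective day samples and 183 and 213 in the objective day samples. Both objective day samples were higher, while samples of the same condition differed by 0.22 on the log2 scale in either condition. The log2 fold change was 0.47 (standard error 0.15, 95% interval 0.12 to 0.82, adjusted p = 0.103, limma). Its absolute size exceeded that of 88.4% of all genes, and it was 0.38 (95% interval 0.041 to 0.71) after the GC trend was removed. An unclassified transcript, AC167363.2, overlaps 273 exonic bases of Cdkn1a on the opposite strand, 7.68% of its exons. The strand setting of the counting is not given in the sources used here, so reads of the 2 cannot be told apart there.

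**Figure D3:**
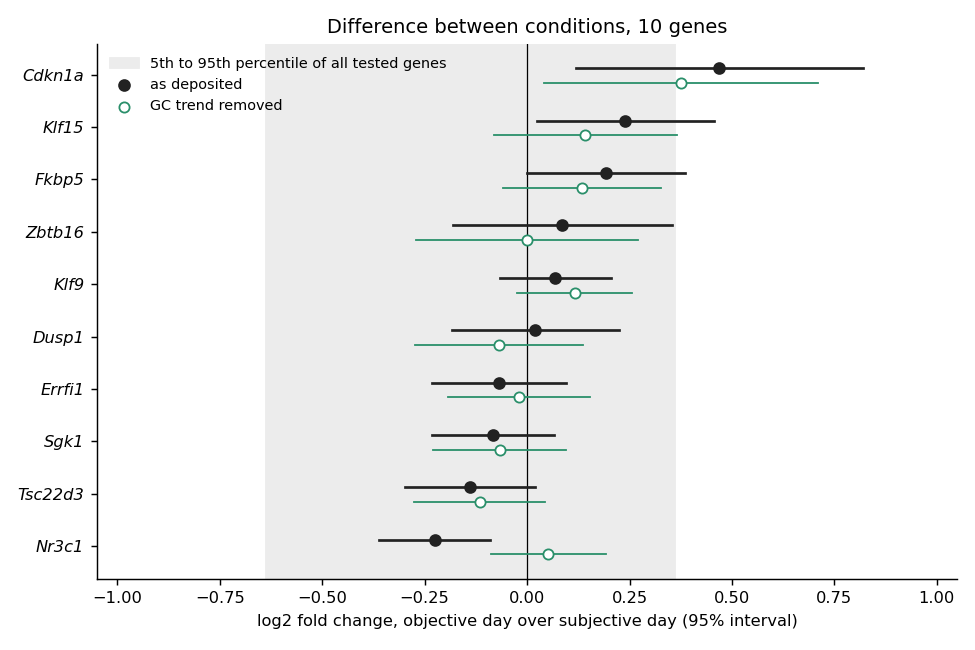
Log2 fold change of objective over subjective day for the 10 genes, with 95% intervals, for the values as deposited (black) and after removal of each sample's GC trend (green, open). The grey band runs from the 5th to the 95th percentile of all genes tested, -0.64 to 0.36. Only Cdkn1a lies outside the band, and Nr3c1 changes side when the GC trend is removed.

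The 10 genes spanned a wide range of levels. Per kilobase of merged exons, Sgk1 was highest with a mean of 2360 adjusted counts over the 4 samples (range 2249 to 2465), higher than 96.3% of all genes tested. Klf9 followed with 811 adjusted counts per kilobase and Nr3c1 with 435. Errfi1 had 281, Tsc22d3 227, Dusp1 174, Klf15 161 and Fkbp5 103 adjusted counts per kilobase. Zbtb16 and Cdkn1a were lowest with 54.6 and 48.0, still above 31.3% and 29.2% of all genes. Neighbours in this order were apart in all 4 samples except Dusp1 and Klf15, and Zbtb16 and Cdkn1a, whose ranges overlapped. Sgk1 lay 2.91 times above Klf9, while the widest difference between conditions in any of the 10 genes was 38.4%, in Cdkn1a.

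**Figure D4:**
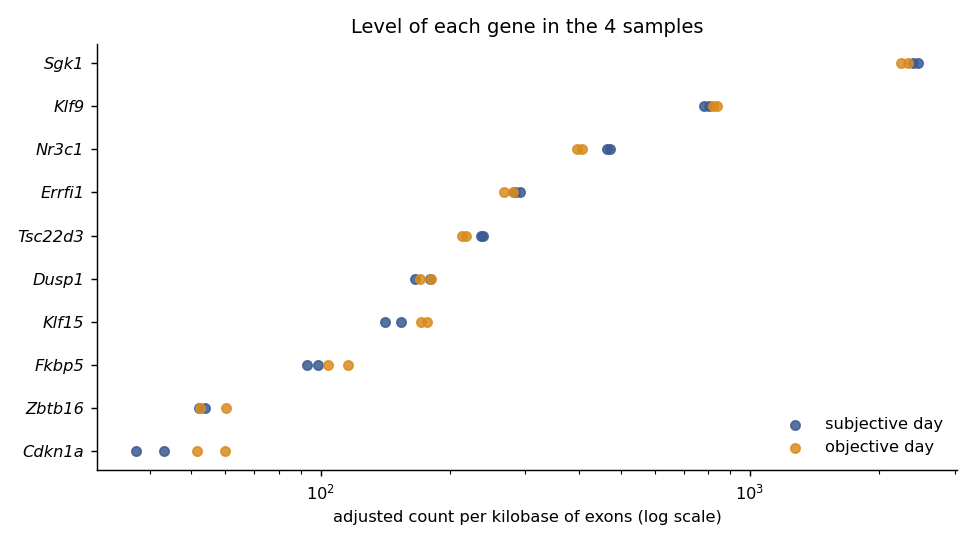
Adjusted counts per kilobase of merged exons, on a log axis, for the 10 genes in the 4 samples, ordered by their mean. Blue points are subjective day and orange points objective day. Sgk1 has the highest level, 2249 to 2465, and Cdkn1a the lowest mean, 48.0.

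The genes around the receptor were described from a list of 16 that covers the related receptor, enzymes that convert its hormone, chaperones and coregulators. Of these 2 (12.5%) were called lower, 0 higher and 14 were not called, where 7.45% of all genes were called lower and 1.06% higher, with a median log2 fold change of 0.0095 against 0.015 over all genes tested. Ptges3, a co-chaperone that stabilizes the hormone-binding form of the receptor, had 1443 and 1393 adjusted counts in the subjective day samples and 1040 and 923 in the objective day samples. Hsp90aa1, the inducible Hsp90 chaperone, had 29562 and 26170 in the subjective day samples and 20490 and 17459 in the objective day samples. Their log2 fold changes were -0.53 (adjusted p = 0.00965, limma) and -0.56 (adjusted p = 0.0196). Both objective day samples were below both subjective day samples for either gene. Neither call held when only the GC trend was removed, where the log2 fold changes were -0.32 and -0.37. In that fit 0 of the 16 genes were called, against 1.2% of all genes. Without objective day sample 2 only Ptges3 was called, and without subjective day sample 1 Fkbp4 and Stip1 were called higher besides.

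By adjusted count, not divided by length, the most abundant genes of that list without a call were Hsp90ab1, the constitutive Hsp90 chaperone, and Ncor1, a corepressor. Their log2 fold changes were 0.084 and 0.034. Nr3c2, the mineralocorticoid receptor, which also binds corticosterone, had 1296 and 1399 adjusted counts in the subjective day samples and 1255 and 1256 in the objective day samples (log2 fold change -0.10, adjusted p = 0.408, limma). Per kilobase Nr3c2 had 201 adjusted counts, less than the 435 of Nr3c1. Hsd11b1, which regenerates active hormone, had 24.8 to 36.5 adjusted counts, and Hsd11b2, which inactivates it, had 22.9 to 37.5. At these low levels the 95% intervals of the log2 fold change were wide, -0.89 to 0.47 for Hsd11b1 and -1.09 to 0.23 for Hsd11b2.

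Another list held 36 further genes that glucocorticoids are known to induce, of which 34 could be tested. Of these 2 were called higher, 2 lower and 30 were not called, so that 11.8% were called against 8.51% of all genes, with a median log2 fold change of 0.029 against 0.015 over all genes. The metallothioneins Mt1 and Mt2, which bind metal ions, were called higher. Mt1 had 4754 and 4137 adjusted counts in the subjective day samples and 5878 and 5715 in the objective day samples. The log2 difference was 0.39 (adjusted p = 0.026, limma). Mt2 had 1519 and 1308 in the subjective day samples and 1897 and 1862 in the objective day samples. For Mt2 the log2 difference was 0.41 (adjusted p = 0.0253). Neither passed without objective day sample 1, without objective day sample 2 or after removal of the GC trend, where the log2 fold changes were 0.31 and 0.31. Without those samples the list had 2 called genes in each case, both lower.

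Anxa1, whose product annexin limits inflammation, was called lower, with 786 and 765 adjusted counts in the subjective day samples and 434 and 493 in the objective day samples. For Anxa1 the log2 fold change was -0.74 (adjusted p = 0.00575, limma) and -0.55 after the GC trend was removed, where it was still called. The ocular surface markers given above were lower in the same samples, and their part in the Anxa1 value was not tested. Arrdc3, which regulates receptor trafficking, was also called lower (log2 fold change -0.47, adjusted p = 0.0276, limma), and its log2 fold change was -0.088 without the GC trend. Without objective day sample 1 the 2 called genes were Anxa1 and Cdkn1c. The 2 genes of this list with the highest adjusted counts, not divided by length, among those without a call, Glul and Foxo3, had log2 fold changes of -0.068 and 0.12.

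Of 17 inflammatory genes that the receptor is known to repress, 4 were not analysed here, 7 had values too low for the filter and 6 could be tested. Of these 6, 0 were called in limma's test, against 8.51% of all genes, and 0 had an unadjusted p under 0.05, against 25.4%. The median log2 fold change was -0.0074, against 0.015 over all genes. The endothelial adhesion gene Vcam1 had 265 to 329 adjusted counts (log2 fold change -0.23) and Mmp9, which degrades matrix, had 254 to 279 (log2 fold change 0.11). Without subjective day sample 2 the protease gene Mmp3 was called lower. It had 335 adjusted counts in subjective day sample 1 and 104 to 145 in the other 3 samples.

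Immediate early genes were listed because Dusp1 and several other targets share their inducers. Of 19 tested genes 3 (15.8%) were called higher, against 1.06% of all genes, 0 lower and 16 were not called. The median log2 fold change was 0.15 against 0.015 over all genes, and 0.066 against 0.021 with the GC trend removed. Egr1, a zinc finger transcription factor, had 375 and 512 adjusted counts in the subjective day samples and 2163 and 2006 in the objective day samples, and Fos, a subunit of the AP-1 factor, had 309 and 319 against 527 and 536. Egr1 reached a log2 fold change of 2.25 (adjusted p = 0.00531, limma), Fos 0.76 (adjusted p = 0.00559) and Ier2 0.38 (adjusted p = 0.0364). The values of both conditions stood apart for all 3 genes. Dusp1 itself was at 0.020, and Jund and Btg2, the genes of the list with the highest adjusted counts among those without a call, at 0.071 and 0.057, were not called either. Ier2 was not called without objective day sample 1, objective day sample 2 or subjective day sample 2, or without the GC trend. Without the variance trend 0 genes were called in any of these lists or in the whole table, where 3586 had an unadjusted p under 0.05.

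**Figure D5:**
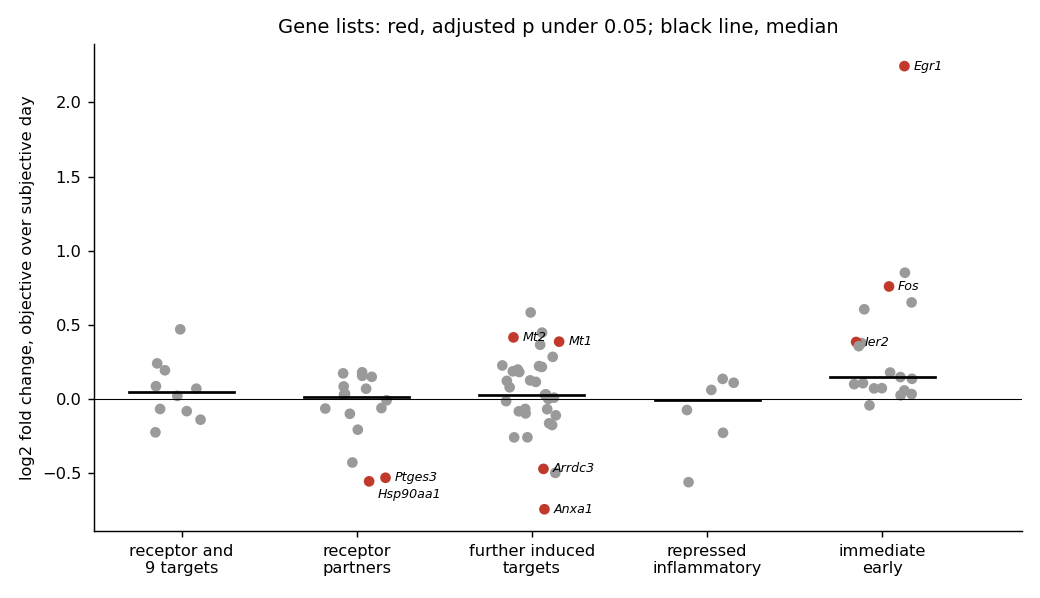
Log2 fold change of objective over subjective day for the receptor with its 9 targets and for the tested genes of 4 lists. Each point is a gene, red where limma's adjusted p is under 0.05, and the black line is the median of the list. The receptor and its 9 targets hold no red point, and the highest point is Egr1 at 2.25.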

How the data were processed

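Poly-A RNA of 4 pooled eye samples was sequenced. The submitters' processing notes and the study's methods name CASAVA 1.8, TopHat2 2.0.9, Bowtie2 2.1.0 and HTSeq with Ensembl release 72. The authors compared the conditions with edgeR. The deposited signal per gene has decimals and nearly equal totals in all samples, as counts adjusted to the same library size would, and how the authors adjusted it is not given in the sources used here. The strand setting is not given in the sources used here. Per the file headers the table also holds the authors' comparison (log2 fold change, log2 CPM, p-value and FDR), which was not used. There were 0 unmapped sample columns.

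Since the values have decimals and whole reads could not be recovered, a count test was not used. Genes reaching 10 in at least 2 samples were tested as log2(value + 1) with limma 3.58.1 (trended variance) in R 4.3.3, with Benjamini-Hochberg adjustment over 17784 genes and a threshold of 0.05. The study calls the 2 samples of a group biological replicates, without naming cage or litter. The p-values combine the spread between these samples with a variance trend shared across genes, with 7.33 degrees of freedom in total. The GC content of the longest transcript (GENCODE M21, GRCm38) was known for 98.6% of genes tested, and the trend was removed by loess with span 0.3. Other pseudocounts, filters, scalings, a constant variance, a replicate block and leaving out each sample were tried. Scripts were tested on simulated data. Promoters are RefSeq windows on GRCm38.p6. Figures were drawn with matplotlib 3.10.9 in Python 3.11.15.

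The 10 genes and all lists were chosen with earlier results of these data known. Named were the 10 genes and, of 4 lists, the called genes and the 2 of highest adjusted count without a call. Nr3c2, Hsd11b1, Hsd11b2, Mmp3, Cdkn1c, Fkbp4, Stip1, Per2, Sesn1, Pck1, Pdk4, Slc1a3, Aqp4, Rpe65, Ermn, the Zbtb genes and the adipose genes were named after their values were seen.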

Additional observations from a re-analysis of the deposited data

How the results depend on the processing

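Of 17784 genes tested 1514 were called in the fit used throughout, 0 without the variance trend and 664 to 2557 when 1 sample was left out. Of the 17536 genes with a known GC content 211 were called with the GC trend removed, and 1626 with a replicate block besides. The called genes among the 10 numbered 0 in all alternatives but 1. The labels give both groups samples numbered 1 and 2 and say nothing of a shared animal or day, and the differences between sample 1 and sample 2 had a correlation of 0.319 across genes in the 2 groups. With a replicate block 3613 genes were called (1282 higher and 2331 lower), among them 1 of the 10, Nr3c1, at -0.23 on the log2 scale (adjusted p = 0.0148, limma), where the other alternatives gave 0.0515 to 0.776. The block gave 4 called genes in the receptor list, 8 among further induced targets and 5 among immediate early genes. Without the variance trend each of these lists had 0. With the GC trend removed the receptor list had 0 and the further targets 1, and with a replicate block besides they had 2 (Hsp90aa1 and Ptges3) and 6 (Anxa1, Cdkn1c, Mt1, Mt2, Per2 and Sesn1). With 1 sample left out the counts were 1 to 4 for the receptor list, 2 to 6 for further targets, 2 to 3 for immediate early genes and 0 to 1 for repressed inflammatory genes. Removing the GC trend, with or without the block, turned the log2 fold changes of Nr3c1 to 0.052, Zbtb16 to -0.0006 and Dusp1 to -0.069. Leaving out 1 sample gave -0.013 to 0.18 for Zbtb16 and -0.037 to 0.078 for Dusp1. The cause of these shifts was not tested. The other 7 genes kept their direction in every alternative run, as did Nr3c1 outside the GC fits. A count test on whole reads was not run, because the reads could not be recovered. The depth behind the adjusted counts is unknown, and 2 samples a group limit the precision.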

Other observations

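Relatives of the 10 genes by symbol were mostly without a call. Of 94 tested relatives 7 were called in limma's test, all lower in objective day and all among the 38 Zbtb genes, which share a zinc finger and a BTB domain with Zbtb16. That is 7.45% of the relatives, against 8.51% of all genes called and 7.45% called lower. With the GC trend removed 0 of the 7 were called, against 1.2% of all genes, and Zbtb41 and Zbtb44 lay above 0, at 0.19 and 0.027. Zbtb6 had 1150 and 1315 adjusted counts in the subjective day samples and 709 and 677 in the objective day samples, a log2 fold change of -0.83 and of -0.40 without the GC trend. Zbtb33, a reader of methylated DNA, had 1097 and 1147 against 775 and 664, a log2 fold change of -0.64 and of -0.16 without the GC trend. Both objective day samples lay below both subjective day samples for either gene. None of the 21 Dusp, 13 Klf, 12 Fkbp, 5 Cdkn and 3 Tsc22d relatives was called, with medians of the log2 fold change of 0.081, 0.036, 0.034, -0.20 and 0.026.

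Among further glucocorticoid targets, Pck1 and Pdk4 differed more between samples of the same condition than between conditions. Pck1, the enzyme that commits metabolites to glucose synthesis, had 249 and 1164 adjusted counts in the subjective day samples and 932 and 282 in the objective day samples. Pdk4, which slows the use of glucose, had 154 and 562 in the subjective day samples and 556 and 200 in the objective day samples. Both were high in subjective day sample 2 and objective day sample 1. Adipocyte genes were measured beside them. The 8 genes of a list made after these values were seen summed to 5229 and 9463 in subjective day and to 7759 and 4511 in objective day. Of these 0 were called, against 8.51% of all genes. All 8 were higher in subjective day sample 2 than in sample 1, and 6 of the 8 were higher in objective day sample 1 than in sample 2. The other 2, Cfd and Retn, had 758 and 794, and 120 and 169 adjusted counts in the objective day samples. Fabp4, a fatty acid carrier of adipocytes, had 1357 and 3096 in the subjective day samples and 2893 and 1124 in the objective day samples. The part of adipose tissue in these values was not tested. Of the 10 glucocorticoid genes 3 had the same order within both conditions, Nr3c1, Klf15 and Zbtb16. The share of all genes with that order was not counted. Within subjective and objective day the samples differed on the log2 scale by 0.024 and 0.038 for Nr3c1. These differences were 0.12 and 0.049 for Klf15, 0.052 and 0.20 for Zbtb16, and 2.22 and 1.72 for Pck1. The 2 highest values of Zbtb16 were in subjective day sample 2 and objective day sample 1.

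Lens and muscle markers also varied between samples. The lens markers summed to 55883 and 6035 adjusted counts in the subjective day samples and 59390 and 14275 in the objective day samples. The muscle markers summed to 63190 and 70200 against 59936 and 66134. In either list 0 genes were called, against 8.51% of all genes. All 12 photoreceptor markers had log2 fold changes above 0, with 0 called and a median of 0.16. Of the 8 RPE markers tested 2 (25%) were called lower, Rpe65 and Ermn, against 7.45% of all genes. With the GC trend removed, where 1.2% of all genes were called, neither was called, at -0.24 and 0.11. The median of the 8 moved from -0.078 to 0.13. The study also measured Rpe65 by quantitative RT-PCR in separate samples and found it lower in objective day.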
